A study of Mus musculus with 2 samples.

Results

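The genes described here are Ubb (ubiquitin B) and Rps27a (ribosomal protein S27A), 2 of the 21000 protein-coding mouse genes with a known RefSeq transcript on chromosomes that hold a peak. The criterion was that they encode ubiquitin, and no measured value enters it, though they were picked with earlier results of these data known. They are not all of the genes that encode ubiquitin, and the others are not analysed here. The data are ChIP-seq peaks of nuclear respiratory factor 1 (NRF1), a transcription factor, in skeletal muscle of wild-type mice. Both libraries of the series carry the labels NRF1, wild-type and skeletal muscle, which makes 1 group with no treatment and no control genotype, and the labels give neither age nor sex. The study's reporting summary, however, lists the library numbered 2 here as input DNA, that is, chromatin sequenced without antibody. There is 1 peak list for the series, of 3226 peaks that are all named after library 1, so that no value below has a replicate, an error or a test, and read depth is unknown.

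Ubiquitin is a small protein that is attached to other proteins, often as a chain that marks them for degradation by the proteasome, a route much studied in muscle wasting. No gene encodes free ubiquitin on its own. It is translated either as a head-to-tail polymer, as from Ubb, or fused to a ribosomal protein, as from Rps27a, whose tail becomes part of the small ribosomal subunit. Proteases cut these precursors into single units, and E1 enzymes activate ubiquitin for attachment. NRF1 binds GC-rich promoters as a dimer, at a palindrome that reads alike on both strands, and is best known for genes of the respiratory chain.

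NRF1 had a peak in the promoter of Ubb and none in that of Rps27a. A promoter peak is one whose summit, its highest point, lies from 1000 bp before to 100 bp after an annotated transcription start. By this definition 1 of the 2 genes had a promoter peak, where the background is 2804 of 21000 protein-coding genes, or 13.4%. With 2 genes, a count of 1 cannot be read against that share.

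The sequence just upstream of Ubb is shown because it holds the summit, the copy of the NRF1 palindrome closest to it and a CCAAT box next to the start. It covers the 250 bases before the first start, chr11:62550921-62551170 on the plus strand, from RefSeq (GRCm38.p6), with the NRF1 copy and the CCAAT box in capitals.
Ubb promoter: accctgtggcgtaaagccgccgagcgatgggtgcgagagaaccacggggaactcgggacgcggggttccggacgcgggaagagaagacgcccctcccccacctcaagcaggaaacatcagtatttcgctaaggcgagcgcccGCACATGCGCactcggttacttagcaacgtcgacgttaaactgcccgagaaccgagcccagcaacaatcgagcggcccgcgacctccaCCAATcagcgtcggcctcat
The summit, at base 62551043, lay 20 bp before the capitals of the NRF1 copy. The CCAAT box began 20 bp before the start, inside the last bases of the peak.

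Ubb (GeneID 22187) spans chr11:62551171-62553213 on the plus strand of mm10. RefSeq gives it 2 known transcripts of 2 exons each, with starts at 62551171 and 62551731, 560 bp apart. Both transcripts end in the same exon, which holds the ubiquitin units. The encoded polymer has 305 residues, made of 4 ubiquitin units of 76 residues that are identical in protein sequence, plus 1 residue. The units are 95.6% to 99.1% identical to each other in bases.

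The Ubb peak ran over chr11:62550788-62551157, a width of 370 bp, where the median promoter peak was 296 bp wide. Its summit lay 128 bp before the first start and 688 bp before the second. It therefore counted as a promoter peak of both starts, and the peak ended 14 bp short of the first exon. The summit is in intergenic sequence, and no other gene had this peak in its promoter. The next peak towards higher coordinates had its summit 50.9 kb beyond the second start, with a fold enrichment of 5.94 and a −log10 q of 9.33. It was in the promoters of 2410006H16Rik and of the small nucleolar RNA genes Snord49a and Snord49b. The next peak towards lower coordinates was not looked up. Ubb thus had 1 promoter peak, next to the upstream of its 2 starts.

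**Figure D1:**
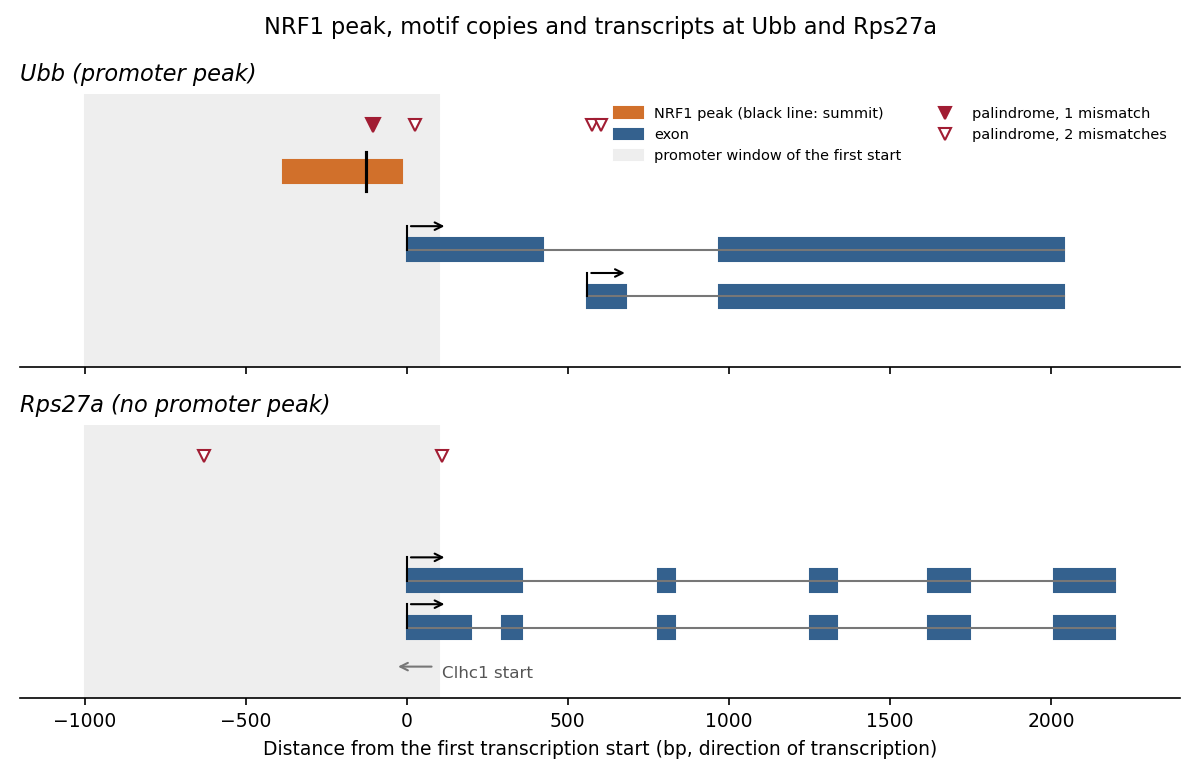
NRF1 peak, palindrome copies and RefSeq transcripts at Ubb (top) and Rps27a (bottom), against the distance in bp from the first transcription start, with transcription running to the right. The Ubb peak (orange, summit as a black line at −128 bp) sits over the filled triangle, a palindrome copy with 1 mismatch. Rps27a has no peak and only copies with 2 mismatches (open triangles).

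The strength of the Ubb peak was ordinary for a promoter. Fold enrichment, the ratio of the signal at the summit to the background that the peak caller expected there, was 11.6 at Ubb (3.53 on the log2 scale). The 2607 promoter peaks had a median of 11.1, quartiles of 7.90 and 16.4, and a range of 3.01 to 49.9. The Ubb peak was thus 1.04 times the median, with 1368 of the 2607 promoter peaks below it (percentile 52.5). Its −log10 q, the caller's confidence after correction for multiple testing, was 34.8 against a median of 25.3, at percentile 62.7.

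Within 0.1 log2 units of its fold enrichment there were 265 promoter peaks, Ubb included. Values recur in the list, and 4 other promoter peaks had exactly the fold enrichment and q of the Ubb peak. The genes nearest in fold enrichment, taken in alphabetical order among these ties, were Crk, which encodes an adaptor of tyrosine kinase signalling, with the summit 87 bp before its start, Heatr3, with the summit 9 bp before, and Klhdc3, with the summit 33 bp before. Each had the value of Ubb, 11.6, at the precision of the list.

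**Figure D2:**
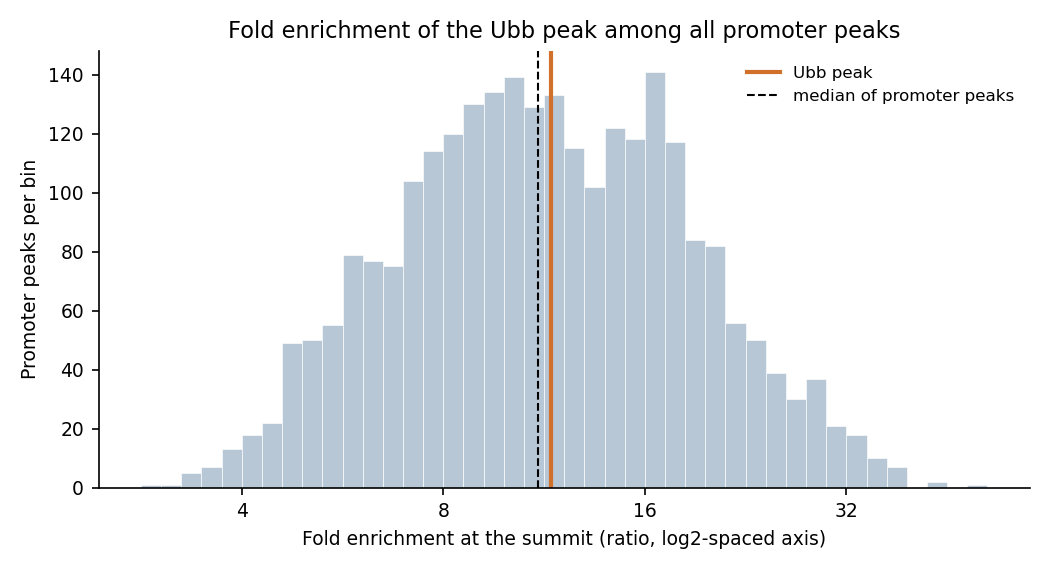
Number of promoter peaks by fold enrichment at the summit (ratio, log2-spaced axis) for all 2607 promoter peaks. The Ubb peak (orange line, 11.6) lies just right of the median (dashed line, 11.1), in the thick of the distribution.

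The NRF1 palindrome, GCGCATGCGC, was searched within 100 bp of each summit with at most 1 mismatch. Being its own reverse complement, it was found on both strands by 1 search, and at Ubb it overlapped none of the other motifs below. At Ubb there was 1 such copy, at chr11:62551063-62551072, with its centre 24.5 bp from the summit and 103.5 bp before the first start. It departs from the palindrome by the substitution G3A, counted from 1 at the 5′ end on the plus strand. No exact copy lay near the summit. Copies with at most 1 mismatch were found at 1719 of 2607 promoter peaks (65.9%), exact copies at 285 (10.9%), and copies with at most 2 mismatches at 2372 (91.0%). In this respect Ubb was like most promoter peaks.

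The same 10 bases as at Ubb, on either strand, lay within 100 bp of the summit at 66 promoter peaks (2.53%), Ubb included. Their fold enrichments ranged from 5.52 to 38.3 with a median of 13.8, and 24 of them were weaker than the Ubb peak and 41 stronger. One and the same site therefore went with a wide range of enrichments, and Ubb was in the lower part of it. Among all 32817 RefSeq promoter windows, which run from 250 bases before to 50 bases from the start on, 120 (0.366%) held these bases.

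Near-palindromic copies also lay under some peaks of genes that act on ubiquitin or resemble it. The promoter peaks of Otulin, Fau and Ubl3 held none within 100 bp of the summit. The copies found are shown with 10 bases on each side, on the strand of the gene, with the 10 bases of the site in capitals. The base that differs can thus be seen beside the Ubb site. The spans are chr11:62551053-62551082 for Ubb, chr6:124829480-124829509 for Usp5, chr14:101653717-101653746 for Uchl3, chr2:61711604-61711633 for Psmd14 and chr8:121590311-121590340 for Map1lc3b, in mm10.
Ubb: gcgagcgcccGCACATGCGCactcggttac
Usp5: cttgcctttaGCGCATGCGCacactgagtc
Uchl3: cggcccggtgGCGCATGCGTagaactcggg
Psmd14: caggcggcctGCGCGTGCGCtgtgtgctcc
Map1lc3b: gctggcgtagGCGCAGGCGCatggcttggg
Usp5 had the exact palindrome, centred 10.5 bp before its start. The substitutions at the others were C10T at Uchl3, A5G at Psmd14 and T6G at Map1lc3b, each at another position than at Ubb. The fold enrichments were 14.2 at Usp5 (0 mismatches), and 14.7 at Map1lc3b, 12.9 at Psmd14, 11.6 at Ubb and 9.81 at Uchl3 (1 mismatch each). With 1 exact copy among peaks chosen for holding a copy, no relation to the mismatch count can be read.

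Other promoter motifs were looked up in the 300-base windows at the 2 starts of Ubb, on both strands. At the first start there were 2 copies of CCAAT, the box bound by NF-Y, which began 20 bp before and 13 bp after the start. CCAAT was present in 37.4% of all promoter windows. At the second start there was no CCAAT but 2 copies of GGGCGG, the GC box bound by Sp1, 169 bp before and 27 bp after the start, a motif held by 35.6% of windows. Neither window held TATAAA (13.6% of windows) or GAANNTTC, the core of a heat shock element (7.86% of windows). The NRF1 palindrome with at most 1 mismatch was in the window of the first start, beginning 108 bp before it, and not in that of the second. It was in 6.32% of all windows. The starts of Ubb thus differed in the motifs beside them, and NRF1's summit and near-palindromic copy went with the one that has the CCAAT boxes.

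Rps27a (GeneID 78294) spans chr11:29545842-29548040 on the minus strand. Its 2 known transcripts, of 5 and 6 exons, share 1 start at 29548040. It encodes 156 residues, that is, 1 ubiquitin unit identical in protein to those of Ubb and an 80-residue ribosomal tail. In bases its unit was 80.7% identical to each of the 4 units of Ubb. Both genes lie on chromosome 11, which held 287 of the peaks.

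No peak lay in the promoter of Rps27a or near it. The nearest summit was 478 kb before the start, in a weak peak at chr11:30025974-30026109 with a fold enrichment of 4.94 and a −log10 q of 3.33, which is in the promoter of Eml6. On the other side the nearest peak, at chr11:26387033-26387549, was 3160651 bp away and strong, with a fold enrichment of 26.0 and a −log10 q of 69.4, at no known promoter. Rps27a therefore stood in a stretch of 3.64 Mb without a summit. This stretch holds the starts of 13 protein-coding genes. Of the 3204 gaps between neighbouring summits, 155 were longer, and the median gap was 210.6 kb. The distance from Rps27a to its nearest summit was longer than for 12904 of the 18196 genes without a promoter peak (percentile 70.9), whose median was 186.9 kb.

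Clhc1 (clathrin heavy chain linker domain containing 1) is transcribed from the opposite strand with a start at 29547950, 90 bp inside Rps27a. The promoters of the 2 genes overlap, and Clhc1 had no promoter peak either.

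The promoter of Rps27a also lacked the near-palindromic sequence found at Ubb. From 1000 bp before to 100 bp after its start the best match had 2 mismatches, in 1 copy, and none lay within 100 bp of the start. A copy with at most 1 mismatch was present in this span at 68.4% of genes with a promoter peak and at 3.44% of those without. Exact copies were present at 11.7% and 0.214%, and copies with at most 2 mismatches at 94.5% and 28.3%. With at most 1 mismatch Rps27a was like most genes without a peak and Ubb like most genes with one, while the copy with 2 mismatches at Rps27a has its like at a minority of genes without a peak. No match says only that these letters are not in this span.

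Base composition differed between the genes too. Within 100 bp of the start GC content was 46.3% at Rps27a, against 56.2% at the first and 65.2% at the second start of Ubb. The median was 67.7% for genes with a promoter peak and 58.7% for those without, so Rps27a was below both medians and the first start of Ubb was as well. The ratio of observed to expected CpG dinucleotides, which is near 1 in CpG islands, was 1.12 at Rps27a and 1.15 and 1.16 at the starts of Ubb, against medians of 0.932 and 0.570. Both genes therefore start in sequence rich in CpG for its base composition. Around the Ubb summit GC content was 62.7% and the CpG ratio 1.27, where the median promoter peak had 66.7% and 0.926.

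Ubiquitin sequences are repeated in the genome, and the study kept only reads that map to 1 place. Exact copies of every 50-base window, the read length, were therefore counted in mm10 on both strands. In the promoters of both genes all 1052 windows of the first start occurred once, as did all 321 windows of the Ubb peak. In the coding exons this was not so. At Ubb 82 of 869 windows (9.44%) occurred once, and some had up to 8 copies. At Rps27a 0 of 227 did, with up to 10 copies. Over the whole gene 52.1% of windows occurred once at Ubb and 85.4% at Rps27a. By these counts reads within the coding exons could seldom be placed, whereas those in the promoter of each gene's first start could. The promoter of the second start of Ubb was not counted by itself. Windows inside it, from 335 to 375 bp after the first start, had 3 copies. Whether this bears on where peaks were called was not tested.

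**Figure D3:**
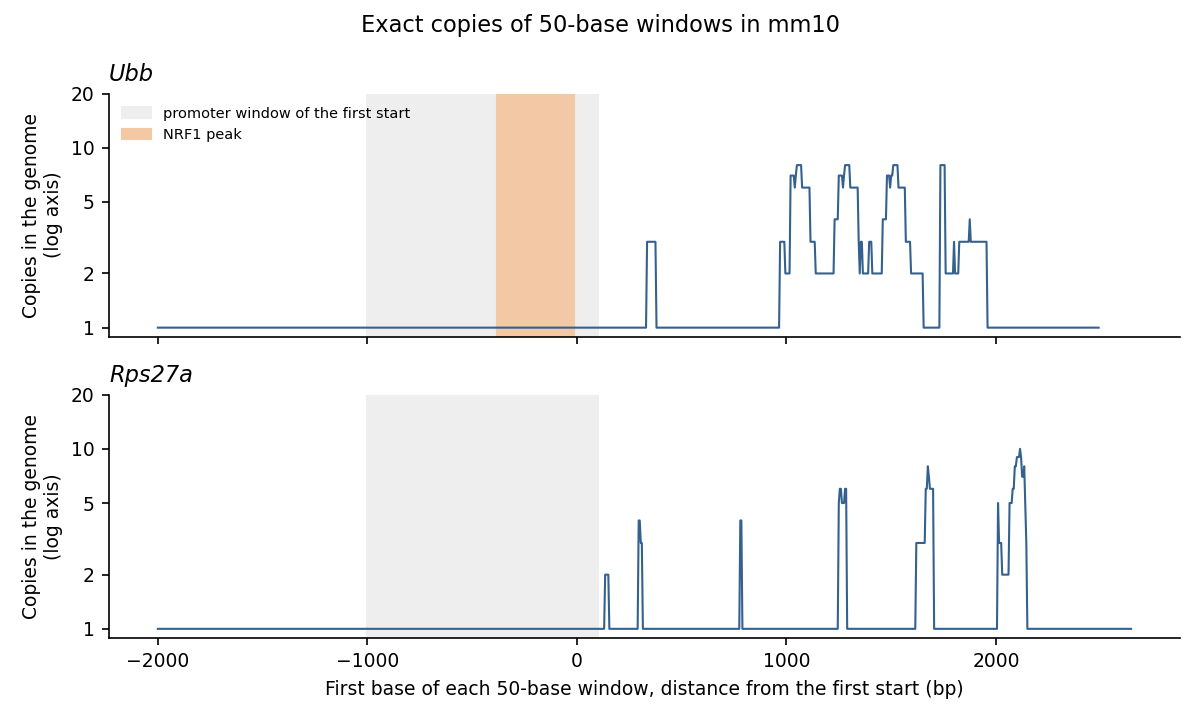
Exact copies in mm10 of each 50-base window along Ubb and Rps27a (log axis), plotted by the distance of its first base from the first start in bp. The promoter windows of the first starts (grey) and the Ubb peak (orange) stay at 1 copy, while the coding exons reach 8 copies at Ubb and 10 at Rps27a.

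RefSeq names 4 pseudogenes of the genes, on other chromosomes, and 0 of them had a peak within 1000 bp. The nearest summit was 695 kb from Ubb-ps on chromosome 14, 408 kb from Rps27a-ps1 on chromosome 1, 3054 kb from Rps27a-ps2 on chromosome 9 and 1273 kb from Rps27a-ps3 on chromosome 6.

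A list of deubiquitinases and E1 enzymes, not all of which act on ubiquitin precursors, had promoter peaks at 4 of 11 (36.4%, background 13.4%), with a median fold enrichment of 13.5 beside 11.4 over all 2804 genes with a promoter peak. Otulin, which removes linear ubiquitin chains, had the highest at 27.8, with the summit 164 bp before its start. No palindrome copy with at most 1 mismatch lay within 100 bp of that summit. Usp5, which takes apart unanchored chains, had 14.2 with the summit 38 bp before its start. Psmd14, the deubiquitinase of the proteasome lid, had 12.9 at 61 bp before, and Uchl3, which trims short tails from ubiquitin, had 9.81 at 254 bp before. The E1 enzymes Uba1 and Uba6 had none, and neither did Usp7, Usp9x, Usp14, Uchl1 and Uchl5. Of the 4 peaks, 3 were higher than that of Ubb and 3 held a near-palindromic copy. This list and those below were chosen with earlier results of these data known, so their shares are description only.

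Ubiquitin-like modifiers, proteins of the same fold that are attached to proteins or lipids or act as domains, had promoter peaks at 3 of 19 (15.8%), near the background. Fau, which joins a ubiquitin-like domain to a ribosomal protein as Rps27a joins ubiquitin itself, had a fold enrichment of 25.0 and a −log10 q of 94.4, with the summit 155 bp before its start. This fusion gene of similar architecture thus carried a peak of more than the upper quartile, where Rps27a had none. Yet Fau too had no palindrome copy with at most 1 mismatch within 100 bp of the summit. Map1lc3b, the autophagosome marker LC3B, had 14.7 at 75 bp before its start, and Ubl3 had 6.33 with the summit 257 bp after its nearest start, in the promoter of another of its starts. Nedd8, Sumo2, Sumo3 and Isg15 were among those with none. Of the 3 peaks, 2 were higher than that of Ubb and 1 held a near-palindromic copy.

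Small ribosomal subunit genes, to which Rps27a belongs, had promoter peaks at 13 of 33 (39.4%, background 13.4%), and Rps27a was among those without. The median fold enrichment of the 13 was 12.2, with 7 above Ubb and 6 below, and 8 held a near-palindromic copy. The highest was Fau with 25.0. Rpsa, which encodes the laminin receptor and ribosomal protein SA, had 19.1 with the summit 89 bp before its start. The lowest were Rps2 with 4.89, Rps9 with 5.38 and Rps15 with 7.32. The list shares Fau with the ubiquitin-like modifiers. Membership in the small subunit therefore went with a peak at some genes and not at others, and the Ubb peak fell in the middle of their range.

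**Figure D4:**
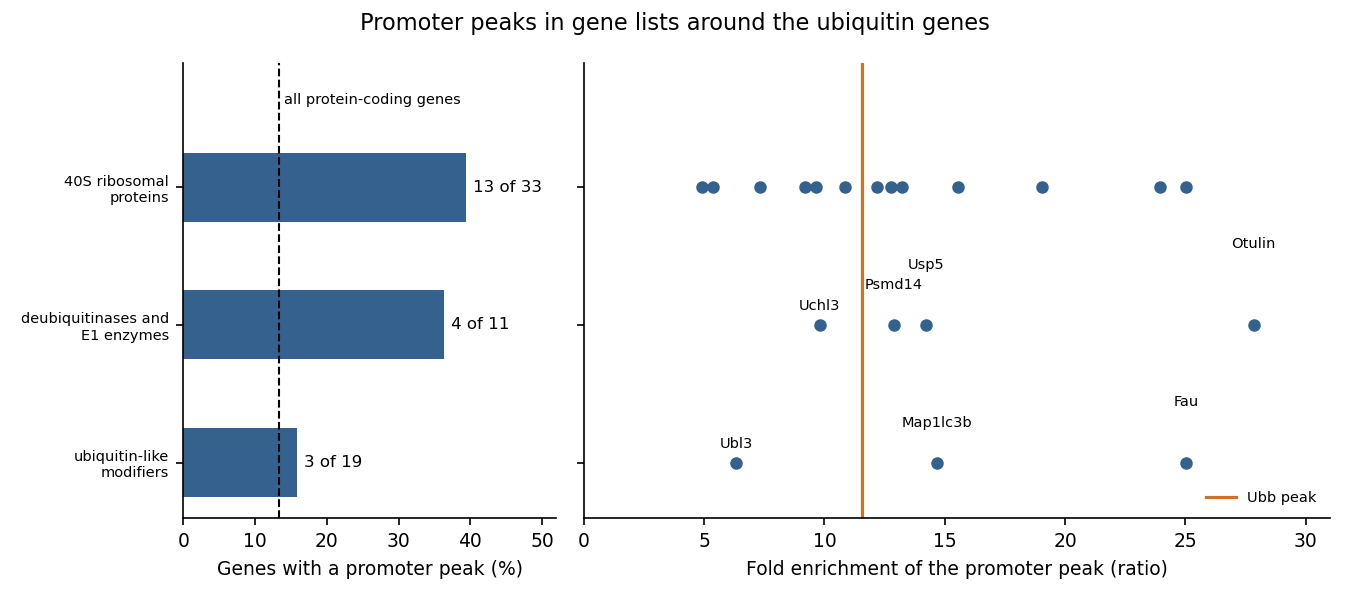
Left, share of the genes of each list with a promoter peak (%), with the 13.4% of all protein-coding genes as a dashed line. Right, fold enrichment (ratio) of each list gene with a promoter peak, with the Ubb peak (11.6) as an orange line and gene names given for the modifiers and for the deubiquitinases and E1 enzymes only. The list of deubiquitinases and E1 enzymes (4 of 11) and the small ribosomal subunit list (13 of 33) lie above the background share. The lists were chosen with earlier results of these data known. Peaks of each list fall on both sides of Ubb.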

How the data were processed

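The study immunoprecipitated NRF1-bound chromatin from mouse skeletal muscle. Per its methods, the authors aligned single-end 50-base reads to mm10 with Bowtie, kept unique reads and called peaks with MACS2 against input DNA at a false discovery rate limit of 0.01 (3219 of the 3226 peaks meet it). The methods name the broad option of MACS2 and the study gives another number of sites, whereas the deposited list has the narrow-peak layout, so that the settings behind it are uncertain. Peak names point to removal of duplicate reads, and all carry the title of library 1. With library 2 given as input DNA, this fits 1 immunoprecipitated library called against 1 input, although both labels name the antibody. The deposited list holds a display score, the fold enrichment (a ratio) and −log10 q of each peak, and an offset to its summit. No counts are given, so depth is unknown. Fold enrichment was used as deposited.

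Starts came from known RefSeq transcripts (GRCm38.p6, the mm10 assembly). The genes named are Ubb and Rps27a, genes that start within 2000 bp of them, and genes with a neighbouring peak of either in their promoter. Also named are list genes with a promoter peak, up to 6 per list, and the 3 genes nearest to Ubb in fold enrichment. Further list genes named, with or without a peak, were added after their values were seen. Some genes of the lists are not reported here by name, but are counted in their list. The gene lists, like the members, were chosen with earlier results of these data known. Sequences came from RefSeq and matched Ubb, and motif and copy counts were run in Python 3.11.15 with numpy 2.4.6 and pysam 0.24.0, tested on simulated sequence. With 1 peak list no test was run. Other promoter limits, cut-offs, starts and motif settings were tried.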

Additional observations from a re-analysis of the deposited data

How the results depend on the processing

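Of 45 alternative values for 11 results, 34 were counted as unmoved and 11 as moved. Unmoved means within 1.5 times for a count, within the 95% Wilson interval of the main value for a share or percentile, and no change at all for a distance. The interval served only as a yardstick. It measures no error, since the share and the percentile are complete counts from 1 list. Ubb was the 1 gene with a promoter peak under all 6 alternatives tried for it (other promoter limits, any overlap of 1 bp, q of at most 1e-05, fold enrichment of at least 5, GENCODE M21 starts). The share of protein-coding genes with a promoter peak was 14.7% with limits of 2000 bp before to 500 bp after a start, 14.1% with 500 bp on each side, 14.1% with any overlap, 12.8% at the stricter q and 12.7% at the stricter fold enrichment. From the middle of the peak in place of the summit, the distance was −199 bp at Ubb and −478001 bp at Rps27a, and with GENCODE starts it was −477922 bp at Rps27a. The Ubb percentile was 55.9 among all peaks and 62.7 by −log10 q. With no mismatch allowed, Ubb had 0 palindrome copies near its summit. The lists held 12 small ribosomal subunit genes at the stricter q or fold enrichment, and 2 ubiquitin-like modifiers with GENCODE starts. A percentile for Rps27a and a search of its whole peak gave no value, as it has no promoter peak. Leaving out a library was not possible with 1 list. No paired analysis was possible because the series has a single peak list. Depth is unknown, so that a promoter without a peak may hold NRF1 below what these libraries could show.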
